A study of Mus musculus with 13 samples.

Results

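The genes described here were 5 of the 21868 in the normalized counts table: the actins Actc1, Acta1 and Acta2 and the alpha-actinins Actn2 and Actn3. They were picked by symbol, with results of these data already known, so their levels, their differences between groups and the Actc1 to Acta1 ratio are given as a description without a test. All 5 had a mean of at least 10 normalized counts. Poly(A) RNA of the gastrocnemius, a calf muscle made mostly of fast fibres, was sequenced from 13 male C57BL/6 mice (C57BL/6N in the study's text). Every mouse had entered the study at 7 weeks of age, had eaten a diet with 60 kcal% fat for 15–17 weeks to become obese, and was then returned to chow. For the next 3 weeks 5 mice (numbered 1 to 5) received phosphate-buffered saline as the vehicle and a placebo, 5 mice (13 to 17) received semaglutide, a GLP-1 receptor agonist, at 30 nM/kg/day by intraperitoneal injection and a placebo, and 3 mice (19, 21 and 22) received the same semaglutide together with drinking water that held a ketone ester (0.114 g/mL). No lean mice and no mice given the ketone ester alone were analysed here. The placebo is named in the labels without its make-up. All libraries carried the same batch date. Between 15319471 and 23498162 reads fell on genes per mouse.

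Actin filaments form the thin filaments of the sarcomere, on which myosin pulls, and alpha-actinin crosslinks the ends of those filaments in the Z-disc. Acta1 encodes skeletal alpha-actin, the actin of adult skeletal muscle fibres. Actc1 encodes cardiac alpha-actin, which is the main sarcomeric actin of the heart and is also made in developing and regenerating skeletal muscle, where it gives way to Acta1. Acta2 encodes smooth muscle alpha-actin of vessel walls, pericytes and myofibroblasts. Actn2 is made in heart and in all skeletal muscle fibres, whereas Actn3 is restricted to fast fibres.

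The 3 actin genes are so alike that the origin of a read could be in doubt, so their coding sequences were compared first. Each has 1131 coding bases, without the stop codon, for 377 codons. Over these bases Acta1 and Actc1 were 86.3% identical (155 differing bases), Acta1 and Acta2 85.4%, and Actc1 and Acta2 82.6%. The stretch of 59 bases, the length of a read, in which Acta1 and Actc1 differed most within an exon holds 12 differences and is given here to show how far the genes can differ over a read. In the stretch in which they differed least they had 2 differences, and Acta1 was far more abundant than Actc1. How many reads were assigned to the wrong gene was not tested. The sequences are from GRCm38 (GENCODE M21), 5′ to 3′ on the coding strand, with capitals where the 3 genes were not all the same. It lies at chr8:123892932-123892990 for Acta1, chr2:114049614-114049672 for Actc1 and chr19:34246177-34246235 for Acta2, in exons 4, 4 and 6 of the transcripts, all on the minus strand.
Acta1 coding bases 459 to 517: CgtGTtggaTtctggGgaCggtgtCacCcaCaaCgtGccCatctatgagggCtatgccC
Actc1 coding bases 459 to 517: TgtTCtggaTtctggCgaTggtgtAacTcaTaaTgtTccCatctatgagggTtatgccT
Acta2 coding bases 459 to 517: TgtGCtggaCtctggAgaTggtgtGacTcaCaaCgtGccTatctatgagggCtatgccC
No window of 59 bases of the Actc1 mRNA was found exactly in the mRNA of Acta1, Acta2, Actb, Actg1 or Actg2, which was also true of Acta2. Of the 1388 such windows of Acta1, 19 (1.37%) were shared with Actb, the cytoplasmic beta-actin gene, and 1 of them also with Actg1. Actn2 and Actn3 shared no window with each other or with Actn1 and Actn4. Reads with a sequencing error or an alternative exon were not covered by this comparison.

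On GRCm38, Actc1 (ENSMUSG00000068614.7) lies at chr2:114047282-114053548, Acta1 (ENSMUSG00000031972.5) at chr8:123891769-123894751, Acta2 (ENSMUSG00000035783.9) at chr19:34241090-34255590, Actn2 (ENSMUSG00000052374.16) at chr13:12269426-12340760 and Actn3 (ENSMUSG00000006457.4) at chr19:4861216-4877909, all on the minus strand. The transcripts used for levels per length have 1473, 1446, 2035, 3013 and 2887 bases, respectively. The promoters of Actc1 and Acta1 are shown because the values of these genes went together over the mice (given later), taken from RefSeq (GRCm38.p6) and ending just before the annotated transcript. Capitals mark the CArG box, the binding motif of serum response factor, which was searched for on both strands. Only its strict form was sought, CC and GG with nothing but A and T between them. Near matches, which can also bind the factor, were neither marked nor counted. The Actc1 sequence is chr2:114052888-114053125, upstream of the main transcript and inside an intron of a longer annotated one, and the Acta1 sequence is chr8:123894776-123895025, both on the minus strand.
Actc1 promoter: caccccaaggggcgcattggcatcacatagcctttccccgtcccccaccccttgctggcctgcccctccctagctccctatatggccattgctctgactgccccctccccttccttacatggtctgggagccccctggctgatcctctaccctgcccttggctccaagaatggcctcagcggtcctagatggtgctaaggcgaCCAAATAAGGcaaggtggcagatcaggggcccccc
Acta1 promoter: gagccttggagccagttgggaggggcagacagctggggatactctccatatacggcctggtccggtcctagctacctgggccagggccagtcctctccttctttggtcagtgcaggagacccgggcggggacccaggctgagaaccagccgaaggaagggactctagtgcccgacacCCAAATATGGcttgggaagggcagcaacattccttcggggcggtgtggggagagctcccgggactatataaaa
Each held 1 CArG box of this strict form, 47 bases before the RefSeq start in Actc1 and 73 bases before it in Acta1. The motif was in 535 of 32851 promoter windows of 300 bases (1.63%), and the windows of Acta2 and Actn2 held none. Only 33 of the 300 bases of the Acta2 window lie before its GENCODE transcript. Of the other family members matched, Actg1 held 1 CArG box, 90 bases before its start, and Actn1 and Actn4 none. Promoters of 4 of the 5 genes were matched, Actn3 being the exception. A link between the motif and the values of the mice was not tested.

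Of the 5 genes, Actc1 showed the largest differences between groups. Its normalized counts in vehicle-treated mice were 1127, 1214, 1064, 1926 and 1355 in mice 1 to 5, respectively (1337 ± 347, SD, n = 5). In semaglutide-treated mice they were 2709, 185, 838, 240 and 240 in mice 13 to 17 (842 ± 1077, SD, n = 5). Mice 14, 15, 16 and 17 lay below every vehicle-treated mouse, while mouse 13 lay above them all, so the groups overlapped. In semaglutide + ketone ester–treated mice the values were 2910, 37383 and 49782 in mice 19, 21 and 22 (30025 ± 24287, SD, n = 3). All 3 lay above all mice of the other groups, but mouse 19 only just above semaglutide mouse 13, whereas mice 21 and 22 lay far above both. By mean level, Actc1 was the gene with rank 1628 of 21868 under vehicle, rank 2589 under semaglutide and rank 57 under semaglutide + ketone ester.

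On the log2(normalized count + 1) scale, the Actc1 difference of semaglutide from vehicle was -1.46 ± 0.83 (SE). Semaglutide + ketone ester was 5.20 ± 0.96 above semaglutide, or 36.9-fold, and 3.75 ± 0.96 above vehicle, or 13.4-fold. The comparisons share mice, so they are not independent of each other. The SD of the log2 values was 0.34 under vehicle, 1.64 under semaglutide and 2.26 under semaglutide + ketone ester. The SEs rest on a spread shared by all groups, unlike those of the Actc1 to Acta1 ratio given later. In both comparisons with semaglutide + ketone ester as the first group, Actc1 had rank 2 of the 12303 genes with a mean of at least 10 when ordered by log2 difference. These sizes depended on single mice. The difference of semaglutide from vehicle was -2.08 without mouse 13. That of semaglutide + ketone ester from semaglutide was 4.45 without mouse 22 and 6.50 without mouse 19, and against vehicle it was 3.00 and 5.04. In edgeR and DESeq2, which compare mean counts rather than mean log values, the difference of semaglutide from vehicle was -0.67 in both, and that of semaglutide + ketone ester from vehicle was 4.51 and 4.50.

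**Figure D1:**
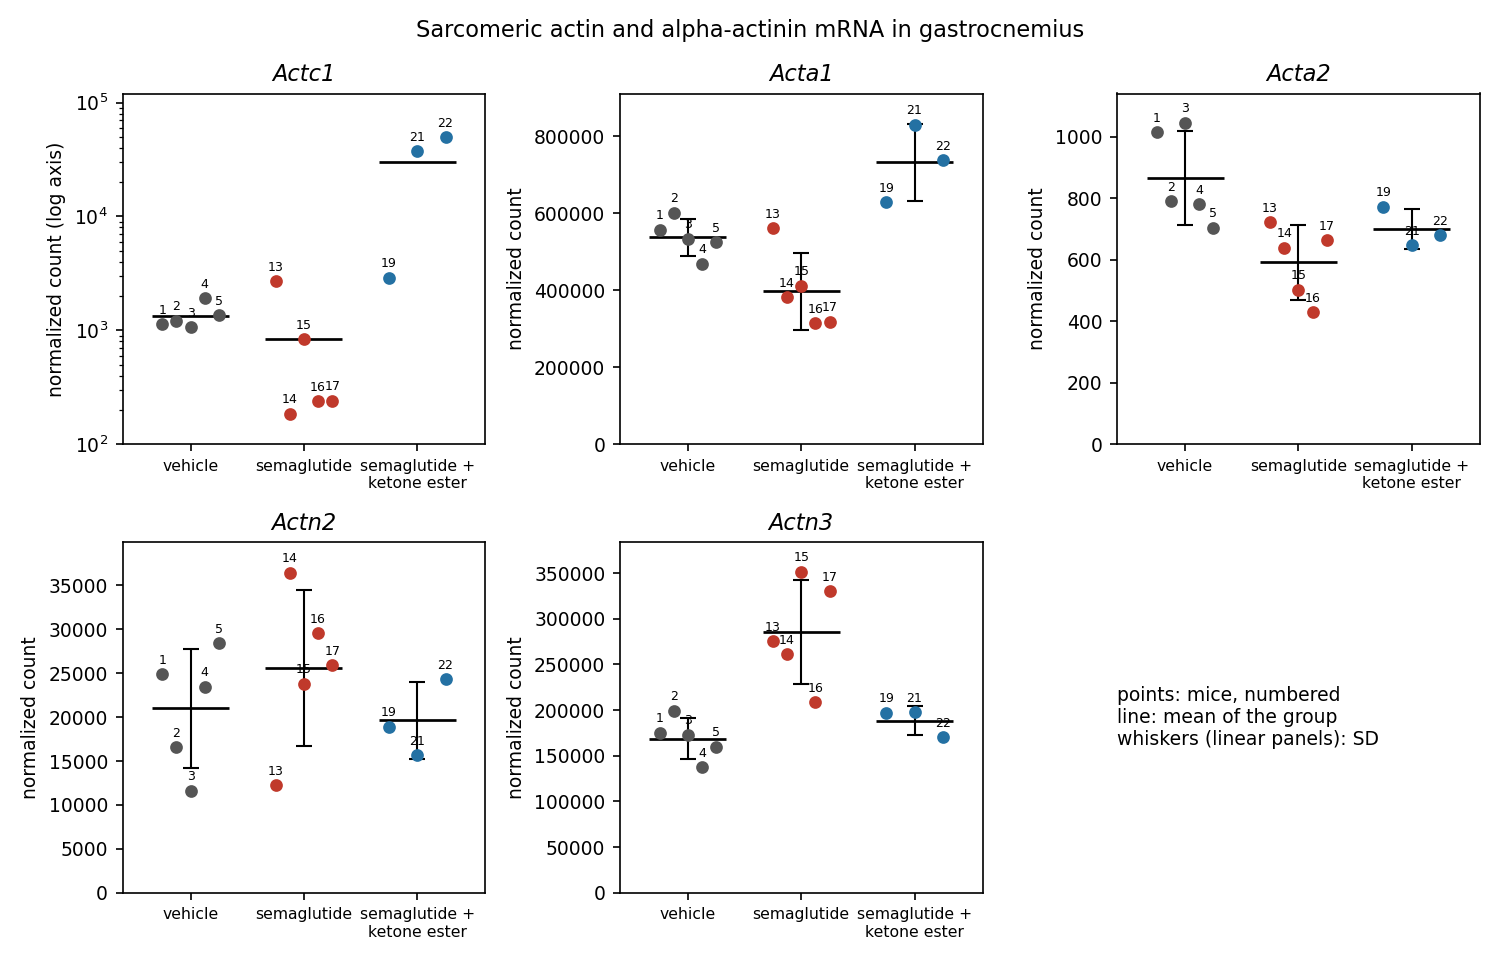
Normalized counts of the 5 genes (vertical axes, logarithmic for Actc1 and linear from 0 for the others) in each numbered mouse of the 3 groups, with the group mean as a line and the SD as whiskers in the linear panels. Actc1 ran from 185 in semaglutide mouse 14 to 49782 in semaglutide + ketone ester mouse 22, and Actn3 was higher in all 5 semaglutide-treated mice than in all other mice.

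Acta1 was among the most abundant mRNAs of the muscle, with rank 4 of 21868 by mean level in each group. Its counts were 557169, 601525, 534513, 469548 and 525311 in vehicle-treated mice (537613 ± 48117, SD, n = 5), or 2.78% ± 0.20 of all normalized counts. They were 561340, 382024, 411954, 315116 and 318750 in semaglutide-treated mice 13 to 17 (397837 ± 100349, SD, n = 5), or 2.31% ± 0.49. Mice 14 to 17 were below all vehicle-treated mice and mouse 13 was within their range. Acta1 reached 629062, 830522 and 737786 in semaglutide + ketone ester–treated mice (732457 ± 100836, SD, n = 3), or 3.62% ± 0.44, above every mouse of both other groups. The log2 difference was -0.46 ± 0.15 (SE) for semaglutide against vehicle, 0.90 ± 0.17 for semaglutide + ketone ester against semaglutide and 0.44 ± 0.17 for semaglutide + ketone ester against vehicle.

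The order of mice was similar for Actc1 and Acta1. Over the 13 mice the Pearson correlation of their log2 values was 0.89 and the Spearman correlation 0.87, which is a description of mice that share treatment groups and of counts that share libraries. Between Actc1 and Acta2 the Pearson correlation was 0.17, and between Actc1 and each alpha-actinin it was -0.40.

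The Actc1 to Acta1 ratio was low in most mice and high in mice 21 and 22. Per 100 normalized counts of Acta1 there were 0.202, 0.202, 0.199, 0.410 and 0.258 of Actc1 in vehicle-treated mice 1 to 5 (0.254 ± 0.091, SD, n = 5). Semaglutide-treated mice 13 to 17 had 0.483, 0.0484, 0.203, 0.0761 and 0.0754 (0.177 ± 0.181, SD, n = 5). Mice 14, 16 and 17 lay below every vehicle-treated mouse, mouse 15 lay among them and mouse 13 above them. With the ketone ester added the ratio was 0.463, 4.50 and 6.75 in mice 19, 21 and 22 (3.90 ± 3.18, SD, n = 3). All 3 mice exceeded all vehicle-treated mice, but mouse 19 was lower than semaglutide mouse 13, so semaglutide and semaglutide + ketone ester overlapped in the ratio although they did not in Actc1 itself. The mean log2 ratio was -8.68 ± 0.45 under vehicle, -9.68 ± 1.34 under semaglutide and -5.37 ± 2.08 under semaglutide + ketone ester (SD). It differed by -0.996 ± 0.633 (SE) between semaglutide and vehicle, while semaglutide + ketone ester exceeded semaglutide by 4.30 ± 1.34 and vehicle by 3.31 ± 1.22. With the ratio taken from group means instead of from each mouse, these differences were -0.23, 4.28 and 4.04. Without mouse 13 the difference of semaglutide from vehicle was -1.49, and without mouse 22 those of semaglutide + ketone ester were 3.56 against semaglutide and 2.57 against vehicle.

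**Figure D2:**
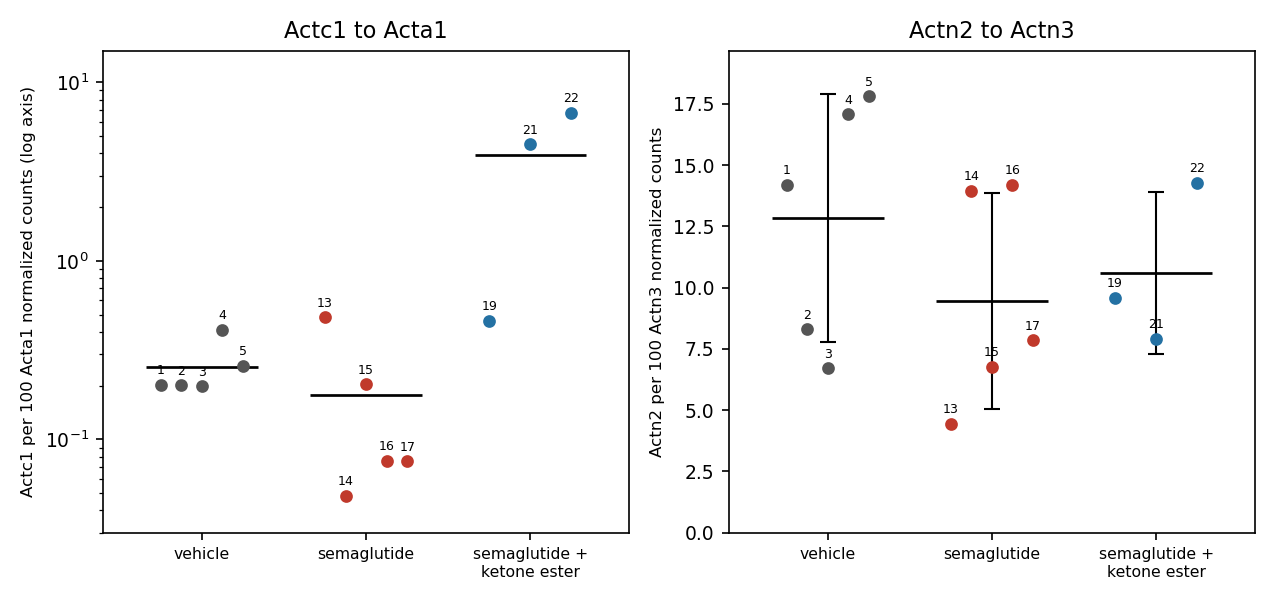
Actc1 per 100 normalized counts of Acta1 (left, logarithmic axis) and Actn2 per 100 normalized counts of Actn3 (right, linear axis from 0) in each numbered mouse, with the group mean as a line and the SD as whiskers on the right. Mice 21 and 22, at 4.50 and 6.75, stand above all other mice in the Actc1 to Acta1 ratio, and the groups overlap in the Actn2 to Actn3 ratio.

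Even in the mice with the highest Actc1, Acta1 remained the prevailing alpha-actin mRNA. Counted per kilobase of mRNA, Actc1 made up 0.195% to 0.401% of the summed level of Actc1, Acta1 and Acta2 in vehicle-treated mice and 0.0474% to 0.471% in semaglutide-treated mice. Its share was 0.452% in mouse 19, 4.23% in mouse 21 and 6.21% in mouse 22, where Acta1 held 99.5%, 95.7% and 93.7%.

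Acta2 was the least abundant of the 5 genes per kilobase under vehicle. Its normalized counts were 1015, 791, 1046, 782 and 704 in vehicle-treated mice (868 ± 153, SD, n = 5), 722, 639, 502, 430 and 664 in semaglutide-treated mice (592 ± 121, SD, n = 5) and 772, 647 and 680 in semaglutide + ketone ester–treated mice (700.03 ± 64.8, SD, n = 3). Each pair of groups overlapped. The log2 difference was -0.56 ± 0.16 (SE) for semaglutide against vehicle, 0.26 ± 0.18 for semaglutide + ketone ester against semaglutide and -0.30 ± 0.18 for semaglutide + ketone ester against vehicle. With all columns rescaled to the same total, the second of these was 0.03.

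Across all 12303 genes tested with limma, 3084 genes (25.1%) differed between semaglutide and vehicle, 2262 (18.4%) between semaglutide + ketone ester and semaglutide and 29 (0.236%) between semaglutide + ketone ester and vehicle at a Benjamini-Hochberg adjusted p under 0.05. In the direction of the first group, 11.9%, 9.09% and 0.0732% of all genes were higher and 13.2%, 9.30% and 0.163% lower, respectively. Against this background, markers of smooth muscle and mural cells, in which Acta2 is best known, were examined. Of 14 such genes 13 were tested, and 5 fell under semaglutide and 0 rose, with a median log2 difference of -0.47. Those that fell, named after their values were seen, were Myh11, Smtn, Mylk, Rgs5 and Cspg4. With the ketone ester added, 3 were higher than under semaglutide and 0 lower. Over the alternatives, these counts were 2 to 6 and 0 to 4. The summed level of the 14 genes was 14312 to 17170 normalized counts under vehicle, 10652 to 14075 under semaglutide and 14836 to 16386 under semaglutide + ketone ester, and no marker was at 0 in a whole group. The part of these cells in the Acta2 values was not tested, and in whole muscle fewer cells of a type and less mRNA per cell cannot be told apart.

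Actn3 differed in the direction opposite to Acta1 between semaglutide and each of the other groups, while both lay higher under semaglutide + ketone ester than under vehicle in mean log2 level. Normalized counts in vehicle-treated mice were 175118, 199135, 172907, 137497 and 159772 (168886 ± 22574, SD, n = 5). They were 275097, 261215, 351569, 208312 and 330034 in semaglutide-treated mice (285246 ± 57017, SD, n = 5), all above the vehicle range, mouse 13 included. Semaglutide + ketone ester–treated mice had 197234, 197736 and 170322 (188431 ± 15685, SD, n = 3), all below the semaglutide range and within or near that of vehicle. The log2 difference was 0.74 ± 0.14 (SE) for semaglutide against vehicle, -0.58 ± 0.17 for semaglutide + ketone ester against semaglutide and 0.17 ± 0.17 for semaglutide + ketone ester against vehicle. By mean level Actn3 had rank 16 under vehicle, rank 8 under semaglutide and rank 16 under semaglutide + ketone ester.

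Groups that did not overlap were frequent among all genes. Of the 12303 genes with a mean of at least 10, 7.22% were higher in every semaglutide-treated mouse than in every vehicle-treated mouse, as was Actn3, and 7.45% were lower, as was none of the 5. In the comparison of semaglutide + ketone ester with semaglutide, 9.96% of genes lay above without overlap, as did Actc1 and Acta1, and 10.2% lay below, as did Actn3. Against vehicle, 5.45% lay above, as did Actc1 and Acta1.

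Actn2, the alpha-actinin of all fibres, varied more among mice of a group than between groups. Its normalized counts were 24862, 16547, 11620, 23479 and 28441 under vehicle (20990 ± 6787, SD, n = 5), 12246, 36438, 23809, 29561 and 25912 under semaglutide (25593 ± 8871, SD, n = 5) and 18923, 15657 and 24330 under semaglutide + ketone ester (19637 ± 4380, SD, n = 3). All groups overlapped, and the highest vehicle-treated mouse was 2.45 times the lowest. The log2 differences were 0.27 ± 0.30 (SE) for semaglutide against vehicle, -0.32 ± 0.35 for semaglutide + ketone ester against semaglutide and -0.05 ± 0.35 for semaglutide + ketone ester against vehicle. The last of these took either sign when single mice were left out, from -0.25 to 0.10.

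Both alpha-actinins together came to 189876 ± 20215 normalized counts under vehicle, 310839 ± 55339 under semaglutide and 208067 ± 11700 under semaglutide + ketone ester (SD). Per 100 counts of Actn3 there were 14.2, 8.31, 6.72, 17.1 and 17.8 of Actn2 in vehicle-treated mice, 4.45, 13.9, 6.77, 14.2 and 7.85 in semaglutide-treated mice and 9.59, 7.92 and 14.3 in semaglutide + ketone ester–treated mice. The log2 of this ratio differed by -0.47 ± 0.43 (SE) between semaglutide and vehicle and was 0.26 ± 0.41 higher once the ketone ester was added, with overlapping groups in each case.

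Counted per kilobase of mRNA, the order of mean levels under vehicle was Acta1 (371793 ± 33276), Actn3 (58499 ± 7819), Actn2 (6966 ± 2252), Actc1 (908 ± 235) and Acta2 (426 ± 75.0, SD, n = 5), and no 2 neighbours in this order overlapped. Under semaglutide the order of means was the same, but Actc1, from 125 to 1839 per kilobase, overlapped Acta2, from 211 to 355. Actc1 lay below Acta2 in mice 14, 16 and 17 and above it in mice 13 and 15. Its median of 163 per kilobase was below the 314 of Acta2. Under semaglutide + ketone ester Actc1, at 1976, 25379 and 33796 per kilobase, passed Actn2, at 6280, 5197 and 8075, in mice 21 and 22 and not in mouse 19.

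**Figure D3:**
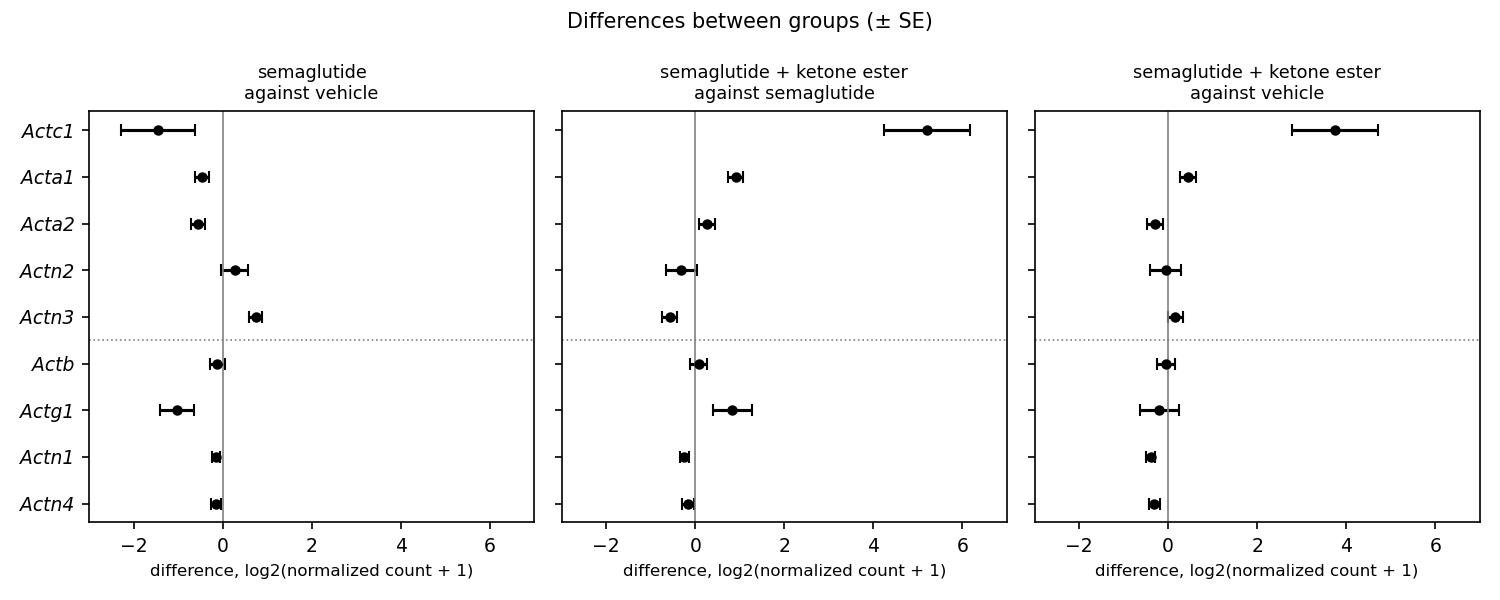
Difference between groups on the log2(normalized count + 1) scale (horizontal axis, with its SE) for the 5 genes and, beyond the dotted line, for the 4 other actin and alpha-actinin genes tested, in the 3 comparisons. Actc1 was 5.20 ± 0.96 higher in semaglutide + ketone ester–treated than in semaglutide-treated mice, and Actg1 had the next largest difference of the plot after those of Actc1, at -1.03 under semaglutide.

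The other genes of the families were followed for comparison. Of 5 such genes 4 were tested, and limma, edgeR and DESeq2 each called 0 of them in every comparison. At an unadjusted p under 0.05 limma had 1 between semaglutide and vehicle, 1 between semaglutide + ketone ester and semaglutide and 2 between semaglutide + ketone ester and vehicle. Actg1, the cytoplasmic gamma-actin gene, had 3170, 3396, 3442, 2856 and 2408 normalized counts in vehicle-treated mice, 4501, 1776, 836, 1115 and 966 in semaglutide-treated mice and 2002, 3368 and 2741 in semaglutide + ketone ester–treated mice. Mouse 13 again stood highest, above all vehicle-treated mice, and the other 4 semaglutide-treated mice stood below them. The log2 difference of semaglutide from vehicle was -1.03 ± 0.38 (SE, limma adjusted p = 0.065). Without mouse 13 it was -1.43 (adjusted p = 5.6e-04), with sample weights -1.45 (adjusted p = 0.0012), and with a variance trend in limma the adjusted p was 0.044. The difference of semaglutide + ketone ester from semaglutide was 0.83 ± 0.44 (adjusted p = 0.20), and it passed the test without mouse 13 (1.23, adjusted p = 0.0035) and with sample weights (1.28, adjusted p = 0.0067).

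The beta-actin gene Actb and the non-muscle alpha-actinin genes Actn1 and Actn4 did not pass the test in any comparison in the limma fit. Actn1 passed it between semaglutide + ketone ester and semaglutide when columns were rescaled to equal totals (-0.48, adjusted p = 0.011). Actb had 4263 ± 207, 4049 ± 1252 and 4149 ± 557 normalized counts under vehicle, semaglutide and semaglutide + ketone ester (SD), and its log2 differences were -0.12 (adjusted p = 0.62), 0.08 (adjusted p = 0.82) and -0.05 (adjusted p = 0.97). Actn1 had 238 ± 15.5, 215 ± 12.4 and 183 ± 28.6, and Actn4 had 1091 ± 112, 992 ± 143 and 879 ± 41.3. Both were lower in all 3 semaglutide + ketone ester–treated mice than in all vehicle-treated mice, as were 5.88% of all genes, with log2 differences of -0.39 (adjusted p = 0.18) and -0.31 (adjusted p = 0.42). Actg2, the enteric smooth muscle actin gene, had at most 12.1 normalized counts in any mouse and was not tested.

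Genes of thin filament length and actin assembly, a list of 27, were mostly not called. Under semaglutide 1 rose and 1 fell, and the median log2 difference was -0.04 against -0.0029 over all genes tested. Fhod3, a formin of sarcomeric actin filaments, fell by 0.69 ± 0.17 (SE, limma adjusted p = 0.011) on the log2 scale. Cap2, which recycles actin monomers, rose by 0.36 ± 0.10 (adjusted p = 0.021). When the ketone ester was added, 2 genes were higher and 2 lower than under semaglutide, with a median of -0.0033 against -0.00024. Tmod1, the cap of the pointed end, differed by 0.54 ± 0.16 (adjusted p = 0.034) and Capza2, a subunit of the barbed-end cap CapZ, by 0.54 ± 0.17 (adjusted p = 0.049). Xirp1, an actin-binding protein of muscle, differed by -1.56 ± 0.47 (adjusted p = 0.039). These calls were lost in 8 of 20 alternatives, 14 of 20 alternatives and 9 of 20 alternatives, respectively. Cap2, the other gene called lower, differed by -0.51 ± 0.11 (limma adjusted p = 0.011), a call lost in 2 of 20 alternatives. In place of 2 genes the list had 8 called under semaglutide without mouse 13 and 1 without mouse 4 or mouse 17. In place of 4 in the second comparison it had 9 without mouse 13, 2 without mouse 2, 4, 16 or 19, 1 without mouse 14, 15 or 17 and 0 without mouse 21 or mouse 22. With sample weights it had 10 in each of these comparisons.

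Partners of alpha-actinin at the Z-disc, a list of 20, had 3 genes higher and 3 lower under semaglutide than under vehicle, with a median of -0.05. Myoz3, which encodes calsarcin-3 of fast fibres, had 4761, 4915, 5376, 4618 and 4325 normalized counts in vehicle-treated mice, 3799, 1019, 981, 621 and 709 in semaglutide-treated mice and 5044, 5704 and 5869 in semaglutide + ketone ester–treated mice. It was lower in all semaglutide-treated mice than in all others, with mouse 13 nearest to vehicle. Its log2 difference was -2.11 ± 0.38 (SE, limma adjusted p = 0.0027) under semaglutide and 2.32 ± 0.44 (adjusted p = 0.0054) with the ketone ester added. Pdlim3, a PDZ-LIM protein that binds alpha-actinin, rose by 0.66 ± 0.18 under semaglutide (adjusted p = 0.023), while Nexn, the actin-binding nexilin, fell by 0.59 ± 0.15 (adjusted p = 0.016).

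Semaglutide + ketone ester–treated mice had 2 of the 20 partner genes higher and 1 lower than semaglutide-treated mice, with a median of 0.25. Besides Myoz3 these were Pdlim7, another PDZ-LIM protein (1.05 ± 0.28, adjusted p = 0.024 by limma), and Mypn, the Z-disc protein myopalladin (-0.35 ± 0.10, adjusted p = 0.03). The list had 10 genes called under semaglutide without mouse 13 and 3 without mouse 4 or mouse 17, in place of 6. In the second comparison it had 12 without mouse 13 and 1 without mouse 17, 21 or 22, in place of 3, and it had 11 with sample weights and 7 in DESeq2. The calls of Pdlim7 and Mypn were lost in 3 of 20 alternatives and 6 of 20 alternatives.

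Transcription factors and co-activators of muscle actin genes were followed because several act through the CArG boxes shown above. Of 16 listed, 15 were tested, and 1 rose and 2 fell under semaglutide, with a median of -0.07. Myod1, the myogenic determination factor, had 129 to 224 normalized counts under vehicle and 393 to 942 under semaglutide, without overlap (log2 difference 1.61 ± 0.24, SE, limma adjusted p = 0.0011). Fhl2, a LIM protein that binds serum response factor, fell by 1.14 ± 0.29 (adjusted p = 0.015). Mef2c, a MADS-box factor as serum response factor is, fell by 0.90 ± 0.21 (adjusted p = 0.011). Mouse 13 had 13926 counts of Mef2c, within the vehicle range of 12905 to 14167, and mice 14 to 17 had 4901 to 7422. Without mouse 13 the list had 7 genes called in place of 3.

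With the ketone ester added, 1 of the 15 was higher and 1 was lower than under semaglutide, with a median of -0.05. Mef2c was 0.85 ± 0.24 higher (adjusted p = 0.031 by limma), a call lost in 7 of 20 alternatives. Abra, an actin-binding activator of serum response factor signalling, had 5072 to 9744 normalized counts under semaglutide and 3742 to 4207 under semaglutide + ketone ester, without overlap (-0.90 ± 0.22, adjusted p = 0.018). It was lower in the group in which Actc1 was highest, and a link between Abra and Actc1 was not tested. Srf, the gene of serum response factor itself, was singled out after its values were seen and had log2 differences of -0.18 (adjusted p = 0.58) under semaglutide and 0.10 (adjusted p = 0.82) with the ketone ester added. In place of 2 the list had 4 genes called without mouse 13, 1 without mouse 14, 15 or 19 and 0 without mouse 21 or mouse 22.

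Because Actc1 is a gene of developing and regenerating muscle, 13 genes of that state were listed, of which 12 were in the table and 9 were tested. Under semaglutide 1 rose and 0 fell, and with the ketone ester added 3 were higher and 1 lower than under semaglutide, with a median of 0.35. Myh3, the embryonic myosin heavy chain, had 459 to 660 normalized counts under vehicle, 371 to 514 under semaglutide and 605, 742 and 746 in mice 19, 21 and 22. Myh8, the perinatal one, had 3351 to 4318, 2273 to 4000 and then 5066, 4708 and 4972. The log2 differences of semaglutide + ketone ester from semaglutide were 0.66 ± 0.15 (SE, limma adjusted p = 0.011) and 0.78 ± 0.15 (adjusted p = 0.0063). In Myh8 the value of mouse 19 was near those of mice 21 and 22. In Myh3 mouse 19 lay within the vehicle range and mice 21 and 22 lay above it. In neither gene was mouse 19 as far from mice 21 and 22 as in Actc1.

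Cdh15, the M-cadherin of muscle precursor cells, went the other way. It rose under semaglutide (1.15 ± 0.19, SE, limma adjusted p = 0.0018), with 318 to 447 normalized counts under vehicle and 517 to 1189 under semaglutide, and was 1.20 ± 0.22 lower with the ketone ester added (adjusted p = 0.0047). Mymx, which encodes a protein of myoblast fusion, was listed at 0 in every mouse. The list had 3 genes called under semaglutide without mouse 13 and 2 without mouse 3, in place of 1, and 2 in the second comparison without mouse 21 or mouse 22, in place of 4.

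Actc1 is foremost a gene of the heart, so markers of cardiac muscle were examined. Myh6, the alpha-myosin heavy chain, had 22.2 to 92.7 normalized counts over the 13 mice, with 80.9 and 84.1 in mice 21 and 22, where Actc1 had 37383 and 49782. Nppb was at 0 in every mouse, Nppa, Myl7, Tbx5 and Gata4 had at most 1.9 counts in any mouse, and Tnni3, Mybpc3 and Ryr2 at most 14.0. Defining markers of heart tissue such as Nppa, Nppb and Myl7 were at 0 in all semaglutide + ketone ester–treated mice.

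The tissue bore the marks of fast skeletal muscle. The 7 skeletal muscle markers (Ckm, Myh4, Ttn, Ryr1, Cacna1s, Mb and Pvalb) summed to 1792300 to 2243250 normalized counts under vehicle, 1100770 to 2103220 under semaglutide and 2355420 to 2691000 under semaglutide + ketone ester, and 3 of them fell and 0 rose under semaglutide. Under semaglutide + ketone ester 4 of the 7 were higher than under semaglutide and 0 lower. Fast fibre genes, a list of 10, had 3 lower and 0 higher under semaglutide and 6 higher and 0 lower with the ketone ester added, with medians of -0.42 and 0.63. Pvalb, the calcium buffer parvalbumin, differed by -1.36 ± 0.31 (SE, limma adjusted p = 0.0092) and 1.88 ± 0.36 (adjusted p = 0.0056). Myh4, the IIB myosin heavy chain, differed by -0.60 ± 0.19 (adjusted p = 0.037) and 1.02 ± 0.22 (adjusted p = 0.0092), the first of which was lost in 12 of 20 alternatives. Tnnc2, fast troponin C, fell by 0.59 ± 0.18 under semaglutide (adjusted p = 0.033), a call lost in 8 of 20 alternatives. Mylpf, the fast regulatory light chain, was 1.38 ± 0.27 higher with the ketone ester added (adjusted p = 0.006).

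Actn3 is itself a fast fibre gene, and it lay higher under semaglutide, where the fast fibre genes called in the limma fit lay lower. By sign alone, 3 genes of the list lay higher under semaglutide and 7 lower. With sample weights 1 was called higher and 6 lower, and in DESeq2 1 was called higher and 4 lower. In place of 3 genes the fast fibre list had 5 called under semaglutide without mouse 13 and 1 without mouse 1, 2, 4 or 17. In the second comparison it had 3 without mouse 21 or mouse 22, in place of 6.

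Slow fibre genes, a list of 10, had 1 lower and 0 higher under semaglutide, with a median of -0.45. The gene was Myl3, the slow and ventricular essential light chain (-1.32 ± 0.34, SE, limma adjusted p = 0.015). With the ketone ester added limma called 0 of the 10, with 1 at an unadjusted p under 0.05, while edgeR and DESeq2 called 1 each, and limma called 1 without mouse 3. The summed level of the slow genes was 68879, 38843, 24268, 59342 and 61716 in vehicle-treated mice 1 to 5, and Actn2 was likewise high in mice 1, 4 and 5 and low in mice 2 and 3. In semaglutide-treated mice 13 to 17 the sum was 30897, 61655, 25342, 49110 and 35754. Actn2 was also highest in mouse 14, while its lowest value was in mouse 13 and that of the sum in mouse 15. Its dependence on the share of slow fibres in each piece of muscle was not tested.

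**Figure D4:**
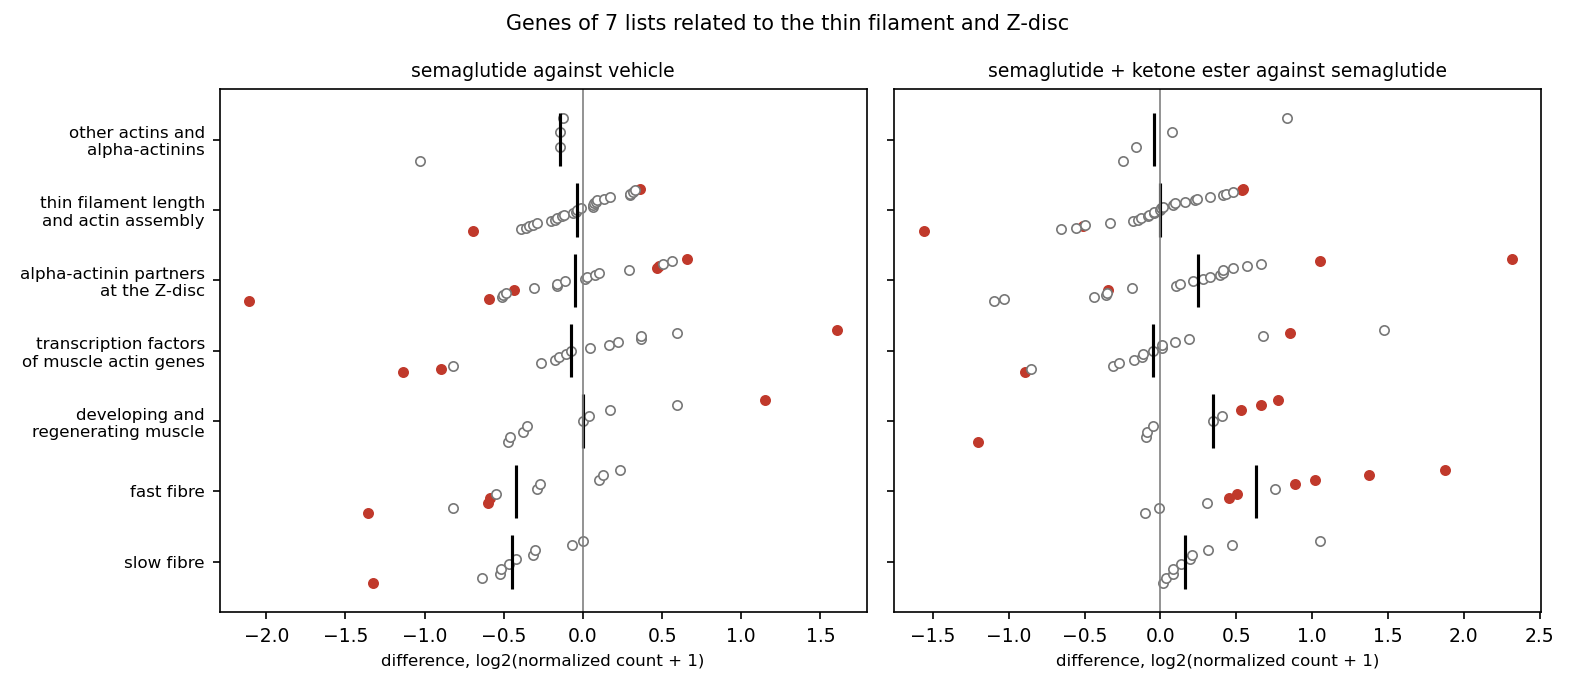
Difference on the log2(normalized count + 1) scale (horizontal axes) of each tested gene of 7 lists, filled where the limma adjusted p was under 0.05 and open otherwise, with the list median as a black line, for semaglutide against vehicle (left) and semaglutide + ketone ester against semaglutide (right). The fast fibre list has medians of -0.42 and 0.63, and Myoz3 lies farthest out at -2.11 and 2.32.

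Between semaglutide + ketone ester and vehicle, limma called 0 of the 94 genes of the 7 lists, with 15 at an unadjusted p under 0.05, while edgeR called 0 and DESeq2 called 2. Of all genes 0.236% were called.

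Blood and other cells differed between the mice as well. The 5 erythroid markers, the globin genes and Alas2, summed to 1729, 2097, 1356, 1508 and 2291 normalized counts in vehicle-treated mice, 3148, 53.0, 1505, 50.5 and 213 in semaglutide-treated mice and 2849, 4585 and 5558 in semaglutide + ketone ester–treated mice. The high and low mice were largely those of Actc1, with mouse 13 highest and mice 14, 16 and 17 lowest under semaglutide, and mice 21 and 22 highest of all. By rank, the globin genes Hbb-bt and Hba-a1 were among the 3 genes most like Actc1 over the 13 mice. Under semaglutide limma, edgeR and DESeq2 called 0 of the 5 markers, with 5 at an unadjusted p under 0.05. Over all alternatives this count ran from 0 to 5. With the ketone ester added limma called 4 higher, edgeR 1 and DESeq2 0, and the count was 0 to 5 over all alternatives. The part of red cells in the Actc1 values was not tested.

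Of 8 fibroblast markers 6 fell under semaglutide and 5 were higher with the ketone ester added (4 to 8 and 2 to 5 over the alternatives), with sums of 6114 to 14154, 5328 to 7374 and 7966 to 13047 normalized counts under vehicle, semaglutide and semaglutide + ketone ester. The 7 endothelial markers summed to 3807 to 4653, 3911 to 4507 and 4158 to 4958, in the same order. The 7 immune markers summed to 410 to 1280, 569 to 1855 and 608 to 1146. The 5 adipocyte markers summed to 560 to 2610, 141 to 10771 and 1007 to 1998. Semaglutide mouse 16 had the highest immune and adipocyte sums and the lowest Acta1 and Acta2, and the link between these values was not tested.

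The genes with the pattern most like that of each member over the 13 mice were sought among the other 12298 genes by Pearson correlation of log2 values, as a description of mice that share groups and libraries. Those most like Actc1 were Dyrk1b, a protein kinase (r = 0.96), Pak1, a p21-activated kinase (0.94), and Mylpf (0.94). Dyrk1b had 952 to 1093 normalized counts under vehicle, 655 to 1273 under semaglutide and 1229, 1576 and 1595 in mice 19, 21 and 22, a far narrower range than that of Actc1. For Acta1 they were Aldh1l2, a mitochondrial folate enzyme (0.98), Mylpf (0.98) and Ccng1, a cyclin (0.97).

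Acta2 was most like Olfr78, an olfactory receptor of vascular smooth muscle with at most 50.3 counts (0.94), Fam168a (0.93) and Acyp2, an acylphosphatase (0.92). The genes most like Actn2 were Nnt, the mitochondrial transhydrogenase (0.96), Ankrd2, a stretch-responsive protein of slow fibres (0.94), and Aldh2, the mitochondrial aldehyde dehydrogenase (0.94). Ankrd2 had 787 to 4360 normalized counts under vehicle and 1048 to 7521 under semaglutide, lowest in mouse 3 and mouse 13, respectively, as Actn2 was. Actn3 was most like Anapc5, a subunit of the anaphase-promoting complex (0.97), Gfer, a sulfhydryl oxidase (0.96), and Rpl30, a ribosomal protein gene (0.96). By Spearman correlation 2 of these 15 choices remained in the first 3 of their member, Mylpf for Acta1 and Ankrd2 for Actn2.

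The scale of the counts bore on all of these differences. After every column was scaled to one common total, the median log2 difference of all genes moved to 0.17 for semaglutide against vehicle and to -0.24 for semaglutide + ketone ester against semaglutide, and the genes called higher and lower to 3262 and 929 and to 611 and 3587, from 1459 and 1625 and 1118 and 1144. Such scaling multiplies all genes of a mouse by the same factor, so differences relative to those medians could hardly change. For the 5 genes they lay up to 0.0055 from the values given above.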

How the data were processed

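Poly(A) RNA of the gastrocnemius of 13 mice was prepared with a stranded mRNA kit and sequenced in pairs of 59 bases, and reads were aligned with DRAGEN to mm10, per the labels and the study's methods. The read counter and gene annotation are not given in the sources used here. The authors deposited one table of normalized counts (a signal per gene scaled between mice), and the submitters' processing notes name DESeq2. Every value was a whole number of reads (within 0.01 reads) times a factor of the mouse, so whole reads were recovered, 15319471 to 23498162 per mouse, and used in edgeR and DESeq2 as alternatives. All columns were mapped to mice by their labels.

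Genes with a mean of at least 10 normalized counts (12303) were fitted with limma 3.58.1 (R 4.3.3) on log2(normalized count + 1), all 3 groups in one model, with eBayes without a variance trend and Benjamini-Hochberg adjustment over all genes. p-values are two-sided and measure the spread between mice, of which each gave 1 library. An eBayes fit with a variance trend was added after the data had been seen. For part of the work it served as the main fit, and it was set back to an alternative because the planned design had no trend. The fit was tried on simulated counts that had the same spread setting in all genes and groups and no outlying mouse. That trial therefore does not cover the unequal spread of the groups or the effect of mouse 13. Alternatives were a pseudocount of 5, no filter, columns rescaled to equal totals, sample weights, edgeR 4.0.16, DESeq2 1.42.0 and leaving out each mouse.

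The 5 genes, the 7 gene lists and the tests were chosen with earlier results of these data known. Because the rule for the 5 genes uses their values, they have no test; SEs come from the fit. Levels per kilobase used the longest GENCODE M21 transcript paired with a RefSeq mRNA of the gene. Genes outside the 5 were named if they were other actins or alpha-actinins, or were among the 3 largest called differences of a list in a comparison. Sequences were read from GENCODE M21 and RefSeq tables of GRCm38. Some items of the marker lists and sequences are not reported here.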

Additional observations from a re-analysis of the deposited data

Results flagged for a closer look

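Among 26 groups of 5 mice examined for a mouse apart from the rest, 3 were flagged. The flags came from counts and ratios, not log2 values. They include values that the rule for the 5 genes uses, so they are a description. Actc1 in semaglutide mouse 13, at 2709 normalized counts, stood apart from the other semaglutide-treated mice (gap over range 0.741, against a cut-off of 0.710). On the log2 scale Actc1 was 11.4 in mouse 13, 9.71 in mouse 15 and 7.54 to 7.91 in mice 14, 16 and 17. Actg1 in mouse 13, at 4501 normalized counts, also stood apart (0.744). The Actc1 to Acta1 ratio of vehicle mouse 4, at 0.410 per 100 counts, stood apart from the other vehicle-treated mice (0.721). No cause was tested.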

How the results depend on the processing

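The differences of Actc1, Acta1, Acta2 and Actn3 and of the Actc1 to Acta1 ratio kept their direction under all alternatives run, while the Actn2 difference of semaglutide + ketone ester from vehicle did not (-0.25 to 0.10 with single mice left out). The count of genes called between semaglutide and vehicle, 3084, was 4847 with sample weights and 2065 to 4450 when single mice were left out. Between semaglutide + ketone ester and semaglutide, 2262 became 4198 with equal totals, 4279 with sample weights and 861 (without mouse 22) to 3959 (without mouse 13), with 971 without mouse 21 and 1500 without mouse 17. Between semaglutide + ketone ester and vehicle, 29 became 4 without a filter, 205 with sample weights, 45 with a variance trend, 45 in edgeR, 172 in DESeq2 and 1 (without mouse 21 or 22) to 77 (without mouse 13), with 3 without mouse 1 or 2, 4 without mouse 3, 13 without mouse 15, 17 without mouse 17 and 12 without mouse 19. The Actn3 difference of semaglutide + ketone ester from semaglutide was -0.81 with equal totals. The causes were not tested. The variance trend was tried after the data had been seen, and under it Actg1 passed the test under semaglutide and the Z-disc list had 5 genes called in place of 3 with the ketone ester added. With equal totals the thin filament list had 6 in place of 2 genes called under semaglutide and the transcription factor list 7 in place of 2 with the ketone ester added. Other moves of list counts by over 1.5 times, under semaglutide, were 5 in place of 3 transcription factors with equal totals or sample weights, 3 in place of 1 gene of developing muscle with sample weights, a variance trend or DESeq2 (2 in edgeR), and 7 with sample weights, 5 in DESeq2 and 1 without a filter in place of 3 fast fibre genes. With the ketone ester added, 5 in place of 3 Z-disc genes were called with equal totals, 5 in place of 2 transcription factors with sample weights, and, without a filter, 1 in place of 4 thin filament genes and 1 in place of 2 transcription factors. No paired analysis was possible because the groups share no mouse numbers. With 3 mice given the ketone ester, of which mouse 19 differed from the others in Actc1, the size of the Actc1 difference is poorly known.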
